A study of Homo sapiens with 16 samples.

Results

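This account follows 32 genes of the endoplasmic reticulum (ER) protein folding system and the unfolded protein response through 2 human melanoma cell lines. The members were chosen as a list of symbols, which were matched to the Ensembl identifiers of both count tables. All 32 were found among 60676 identifiers, and all 32 lay among the 21569 genes that had enough counts to be tested. The lines are A101D, labelled as methionine dependent, and MeWo, labelled as methionine independent, with 8 sequencing libraries of total RNA each. A methionine-dependent line is one whose growth fails when homocysteine takes the place of methionine, and a methionine-independent line makes enough methionine from homocysteine to grow. Of the media in the shared growth protocol, one held methionine at 200 µM and served as the control, and the other lacked methionine and held homocysteine at 200 µM. All cultures had 150 µM cystine, glutamine, pyruvate and dialyzed serum. No label says which library came from which medium.

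The libraries of each line carry replicate numbers 1 to 8. The 4 groups compared here are replicates 1-4 and replicates 5-8 of A101D and the same numbers of MeWo, 4 libraries each. The labels give these sets no meaning, and no date, sequencing run or batch, so a batch that coincides with the sets cannot be told apart from them. The labels do not say whether the libraries of a line came from separate cultures, so every p-value describes how far these libraries separate, and their spread may be technical. Between 28910881 and 38961862 reads were counted in genes per library. Values are given below as CPM, the usual unit in which each count is divided by its library's scaled total. In A101D, 31281 to 33107 genes had a count in replicates 1-4 and 34020 to 34607 in replicates 5-8. In MeWo, replicate 2 stood apart, with 34471 genes detected against 30066 to 31433 in replicates 5-8. The cell cycle markers MKI67, TOP2A, CCNB1, CDK1 and MCM2 summed to 605 to 634 CPM in replicates 1-4 of A101D and to 166 to 171 CPM in replicates 5-8, and all 5 of the 5 were called lower. In MeWo the same sum ran from 1242 to 1291 CPM and from 1267 to 1324 CPM. The part of this difference in the results below was not tested. In such bulk RNA, fewer cells of a kind and less RNA per cell cannot be told apart. The pigment cell markers MITF, SOX10 and PAX3 were present in every library of both lines. TYR stayed between 1.10 and 1.74 CPM in A101D, against 284 to 320 CPM in MeWo. TYRP1, PMEL and MLANA were also lower in A101D, at 0.249 to 1.74, 183 to 247 and 16.5 to 36.1 CPM. In MeWo they ran over 2067 to 2606, 6257 to 6876.5 and 155 to 187 CPM. DCT and S100B were higher in A101D, at 1246 to 1896 and 502 to 697 CPM, against 423 to 557 and 122 to 139 CPM. Of the leukocyte markers, PTPRC, CD3E and CD14 stayed at or near 0, and LYZ ranged over 2.64 to 3.39 CPM in the A101D libraries and over 0.479 to 0.756 CPM in those of MeWo. Of the keratinocyte markers, KRT1 and KRT5 were at or near 0, and KRT10 ranged over 33.2 to 40.8 CPM in the A101D libraries and over 19.4 to 24.9 CPM in those of MeWo. KRT14 was higher in replicates 5-8 of A101D, at 1.596 to 2.198 CPM against 0.408 to 0.831 CPM (limma adjusted p = 8.84e-09), and its part in the results was not tested. Of the fibroblast list, COL1A2 reached 575 to 1029 CPM in A101D against 0.259 to 0.633 CPM in MeWo. PDGFRB was also higher in A101D, at 6.02 to 9.80 CPM against 0.144 to 0.446 CPM. LUM, DCN and COL1A1 were higher in MeWo, at 68.7 to 79.2, 3.78 to 4.95 and 1.43 to 2.61 CPM. In A101D, LUM ran from 1.10 to 2.45 CPM and COL1A1 from 0.475 to 1.07 CPM, and DCN stayed under 0.24 CPM.

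The ER folds secreted and membrane proteins with Hsp70- and Hsp90-type chaperones, lectin chaperones and disulfide isomerases, and it sends misfolded chains back to the cytosol for degradation. When unfolded proteins build up, the sensors IRE1 (gene ERN1), PERK (EIF2AK3) and ATF6 raise the transcription of chaperone and degradation genes, largely through XBP1 and cleaved ATF6. PERK also phosphorylates eIF2alpha and so raises ATF4. The kinase GCN2 reaches the same ATF4 step when amino acids are scarce, so ATF4 targets such as ASNS, TRIB3 and CHAC1 can rise with or without the chaperone genes. The question set for these genes is whether an ATF4-type response comes without the chaperone response of ER stress. Activation of XBP1 occurs by splicing of its mRNA and activation of ATF6 by cleavage of the protein, and gene-level counts measure neither.

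Promoter sequences are shown here because the members are known as targets of factors that bind short DNA elements. RefSeq promoters (GRCh38.p14, 250 bases before to 50 bases after the annotated start) were found for 27 of the 32 members. Both strands were searched for 4 motifs: the ER stress element (CCAAT, then 9 bases of any kind, then CCACG), the second ER stress element (ATTGG, 1 base, CCACG), the ATF6- and XBP1-type motif TGACGTGG, and the core TGATGCAA of the C/EBP-ATF response element, to which ATF4 binds. The ER stress element was present in 7 of the 27 members (25.9%), namely HSPA5, HSP90B1, CALR, CANX, PDIA6, CRELD2 and XBP1, and in 25 of all 27305 genes of the table (0.0916%). The second element was present in HYOU1, HERPUD1 and SDF2L1 (11.1%, against 0.0696% of all genes). TGACGTGG occurred in HYOU1 alone (3.7%, against 0.927%), where it overlaps one of the second elements. The TGATGCAA core occurred in HERPUD1 alone (3.7%, against 1.08%), and in 11 of 39 amino acid response genes (28.2%), a list defined below. Each sequence below is written 5′ to 3′ on the strand that carries the motif, with the motif in capitals. The first 3 carry the ER stress element, the next 2 the second element, and CHAC1 and AARS1 the TGATGCAA core.
HSPA5, chr9:125241381-125241419, minus strand: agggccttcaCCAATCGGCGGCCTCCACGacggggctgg
CALR, chr19:12938374-12938412, minus strand: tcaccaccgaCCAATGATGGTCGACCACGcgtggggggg
XBP1, chr22:28800593-28800631, minus strand: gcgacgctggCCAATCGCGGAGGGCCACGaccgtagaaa
HYOU1, chr11:119057264-119057294, plus strand: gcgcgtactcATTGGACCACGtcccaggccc
SDF2L1, chr22:21642104-21642134, minus strand: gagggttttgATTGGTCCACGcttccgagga
CHAC1, chr15:40953252-40953279, minus strand: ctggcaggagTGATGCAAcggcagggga
AARS1, chr16:70289676-70289703, plus strand: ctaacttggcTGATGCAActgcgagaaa
The HERPUD1 promoter is shown over 90 bases because it was the only member promoter with both kinds of element. The first capitals are the TGATGCAA core read on the other strand (TTGCATCA), and the second capitals are the second ER stress element.
HERPUD1, chr16:56931956-56932045, plus strand: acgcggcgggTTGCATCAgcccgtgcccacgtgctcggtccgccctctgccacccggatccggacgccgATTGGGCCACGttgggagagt
A match describes the letters of this window and does not show that a factor binds there.

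Levels were compared between genes as CPM per kb of exon. CALR, the calcium-binding lectin chaperone of the ER lumen, had the highest level of the 32 members in all 4 groups, at 472 and 355 CPM per kb in replicates 1-4 and 5-8 of A101D and at 317 and 310 in MeWo. PDIA4, HSP90B1 and SEC61A1 came next in replicates 1-4 of A101D, at 333, 258 and 154 CPM per kb. In replicates 1-4 of MeWo the next genes were CANX at 243, HSP90B1 at 188 and PDIA3 at 112 CPM per kb. HSPA5, which encodes the ER Hsp70 BiP, ranked 8th, 6th, 7th and 8th in replicates 1-4 and 5-8 of A101D and in replicates 1-4 and 5-8 of MeWo, at 94.6, 109, 85.2 and 79.0 CPM per kb. PDIA4, P4HB, HSPA5 and PDIA6 lay between 83.7 and 89.1 CPM per kb in replicates 1-4 of MeWo, and their order there was not tested. DERL3 was lowest in all 4 groups, at 0.0719 to 0.235 CPM per kb. Next above it came ERN1, at 1.35, 2.47 and 2.69 CPM per kb, in replicates 1-4 of A101D and in both sets of MeWo, and EIF2AK3, at 4.64, in replicates 5-8 of A101D, where ERN1 was at 5.01.

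**Figure D1:**
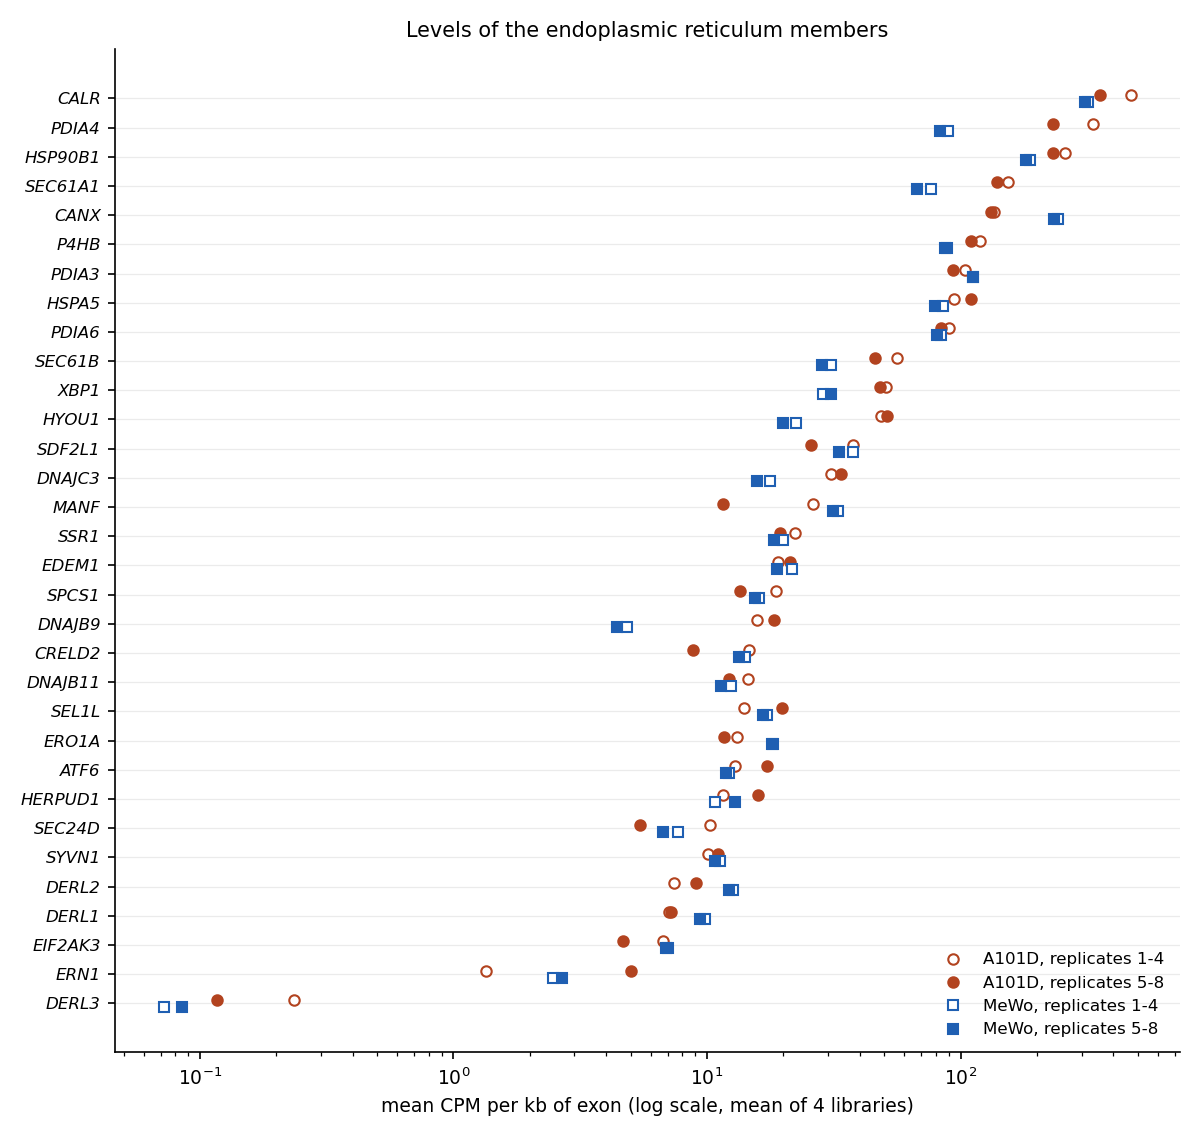
Levels of the 32 members. The x axis is the mean CPM per kb of exon of 4 libraries on a log scale, circles are A101D and squares MeWo, open symbols replicates 1-4 and filled symbols replicates 5-8. CALR is highest in all 4 groups, DERL3 lowest, and PDIA4 and DNAJB9 show the widest gaps between the lines.

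In A101D, most of the members differed between the replicate sets, mostly by little and in both directions. Of the 32, 11 were higher in replicates 5-8, 19 were lower and 2 did not pass the test (CANX and DERL1). The sensors ERN1 and ATF6 and 5 degradation genes were on the higher side, and all 5 disulfide genes and all 5 genes of protein entry and exit were lower. The 30 members called are 93.8% of the list, beside 65.6% of all genes tested, so that a call alone says little about a member in this comparison. Of all genes, 33.2% were called higher and 32.4% lower. Only 2 members, ERN1 and MANF, were called and at least 2-fold different, beside 16.6% of all genes. The median log2 difference of the members was -0.13, and the median size without sign was 0.24, against 0.41 over all genes. The 4 libraries of one set lay wholly above or below the other set for 29 members, of which 11 were higher and 18 lower, beside 59.6% of all genes. The split between higher and lower depended on the scaling of the libraries: scaled by total counts alone, which moves the median of all genes by 0.10, 13 members were called higher and 12 lower. Under all 4 scalings tried, 11 members stayed higher and 12 stayed lower.

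In MeWo fewer of these genes were called. Of the 32 members, 1 was higher in replicates 5-8 (HERPUD1), 9 were lower and 22 did not pass the test. The 10 called are 31.2% of the list, beside 13.6% of all genes, of which 6.16% were higher and 7.45% lower. None reached a 2-fold difference, which 0.631% of all genes did. The median log2 difference was -0.06, and the median size 0.08, against 0.12 over all genes. The libraries of the sets did not overlap for 9 members, 2 higher and 7 lower, beside 16.6% of all genes. The count rested on single libraries: without replicate 4 of MeWo 16 members were called, 15 of them lower, and without replicate 2, which stood apart in the number of genes detected, 7 were called. The calls over all genes moved the same way, to 16.8% without replicate 4 (1093 higher and 2501 lower) and 9.63% without replicate 2.

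**Figure D2:**
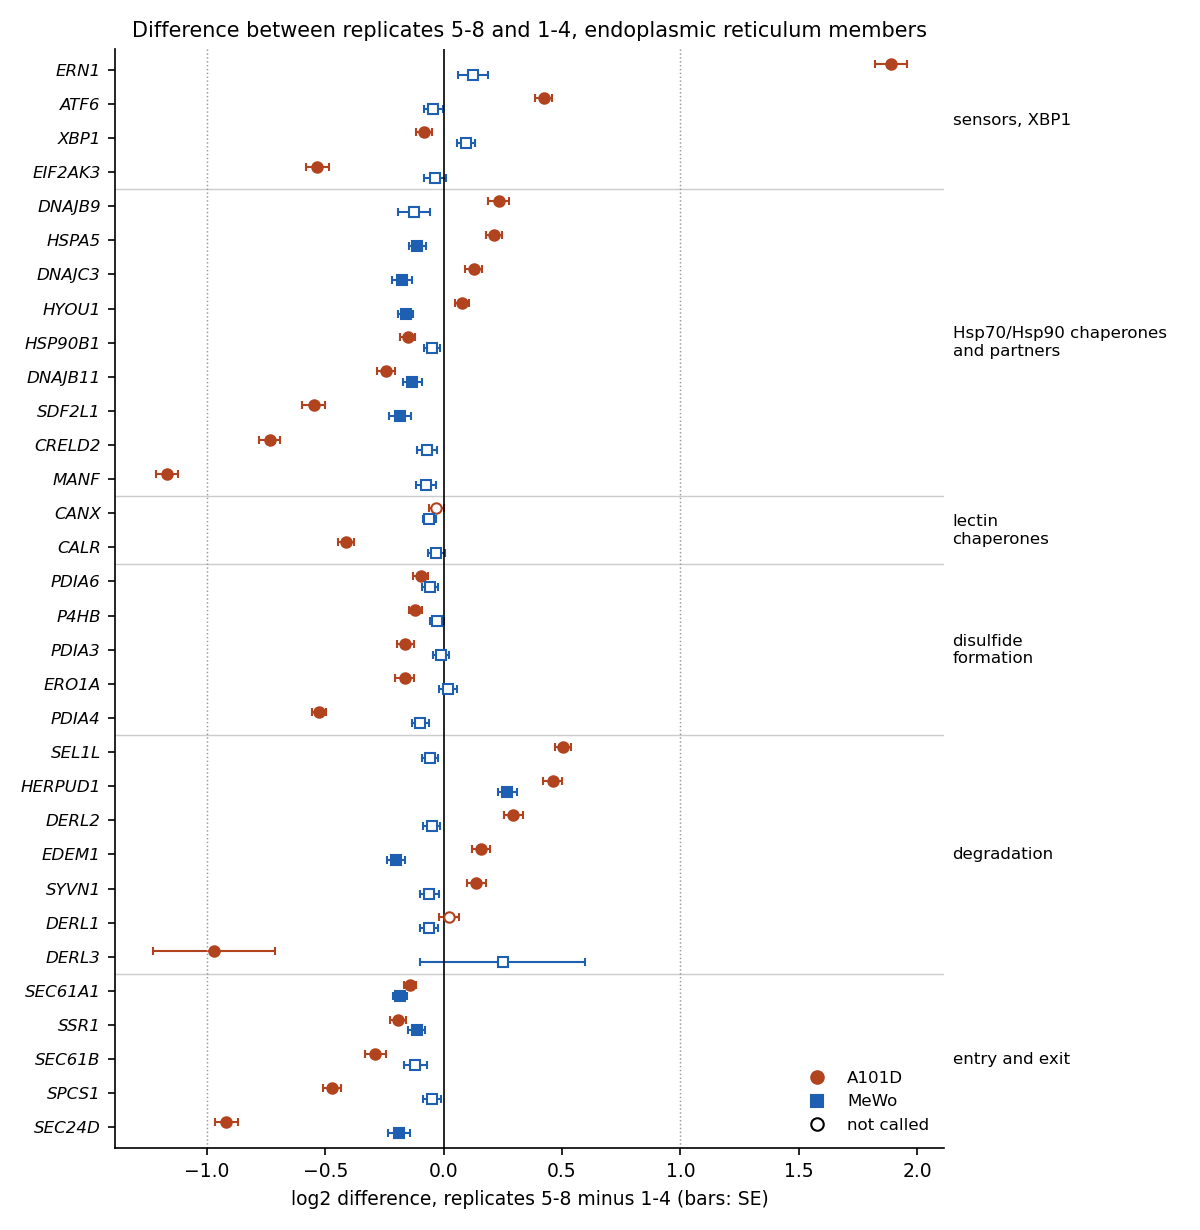
Log2 difference between replicates 5-8 and 1-4 for each member, grouped by role (x axis: log2 difference; bars: standard error; circles: A101D; squares: MeWo; open symbols: not called; dotted lines: 2-fold). The A101D points spread from -1.17 (MANF) to 1.89 (ERN1), and the MeWo points from -0.20 (EDEM1) to 0.27 (HERPUD1).

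ERN1 (ENSG00000178607, chr17:64039142-64130819 of GRCh38, minus strand) encodes IRE1, the kinase and endoribonuclease that splices XBP1 mRNA. In A101D it was counted at 14.3, 14.8, 15 and 14.4 CPM in replicates 1-4 and at 59.3, 57.3, 55.0 and 46.1 CPM in replicates 5-8. Every library of replicates 5-8 lay far above every library of replicates 1-4, and ERN1 had the largest difference of any member. It was 3.7-fold higher in replicates 5-8, with a log2 difference of 1.89 ± 0.07 (SE, n = 4 and 4; limma adjusted p = 4.2e-23). In MeWo the values were 26.6, 25.4, 28.0 and 27.4 CPM against 27.3, 31.4, 29.03 and 29.1 CPM. These sets overlapped, and the log2 difference of 0.12 ± 0.06 was not called (limma adjusted p = 0.207). The difference between the lines was itself called, at -1.76 ± 0.09 (MeWo difference minus A101D difference; limma adjusted p = 7.85e-18).

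ATF6 (ENSG00000118217, chr1:161766294-161964070, plus strand) encodes the membrane-bound transcription factor that is cut in the Golgi to release its active part. In A101D its 4 values in replicates 1-4 were 98.9, 109, 99.4 and 98.7 CPM, and those in replicates 5-8 were 140.0, 134, 138 and 131 CPM. The sets did not overlap, and ATF6 was 1.34-fold higher in replicates 5-8 (log2 difference 0.42 ± 0.04, limma adjusted p = 4.71e-13). In MeWo the values ran from 91.9 to 100.2 CPM and from 91.0 to 96.0 CPM, with overlap and no call (-0.04 ± 0.04, limma adjusted p = 0.541). EIF2AK3 (ENSG00000172071, chr2:88556741-88627576, minus strand), which encodes PERK, went the other way in A101D. Its libraries held 35.9, 37.2, 38.1 and 34.9 CPM against 26.1, 23.2, 26.7 and 25.0 CPM, so that every library of replicates 5-8 was below every library of replicates 1-4. The log2 difference was -0.53 ± 0.05 (limma adjusted p = 1.48e-12), a 1.45-fold lower level. MeWo held 36.7 to 40.0 CPM and 36.1 to 38.7 CPM, which overlapped and were not called (limma adjusted p = 0.702).

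XBP1 (ENSG00000100219, chr22:28794555-28800597, minus strand) encodes the transcription factor downstream of IRE1, and an active unfolded protein response is known to raise its mRNA as well as to splice it. A101D held 144, 158, 161 and 154 CPM in replicates 1-4 and 144, 144, 145 and 148 CPM in replicates 5-8. The sets overlapped, and the log2 difference of -0.08 ± 0.03 (limma adjusted p = 0.0311) lost its call under the 3 other scalings and without most single libraries, and turned to 0.019 under total counts (limma adjusted p = 0.618). In MeWo the values were 87.9, 88.3, 87.7 and 84.4 CPM against 89.6, 96.7, 93.9 and 91.8 CPM. All 4 of the second set lay above the first, but the difference of 0.10 ± 0.04 did not pass the test (limma adjusted p = 0.0886). It was called higher when scaled by upper quartiles (0.11, limma adjusted p = 0.032) or by total counts (0.13, limma adjusted p = 0.00973). The same held with the filter at 1 CPM (0.10, limma adjusted p = 0.0425). Where ERN1 was 3.7-fold higher in A101D, the total XBP1 mRNA was 1.06-fold lower.

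**Figure D3:**
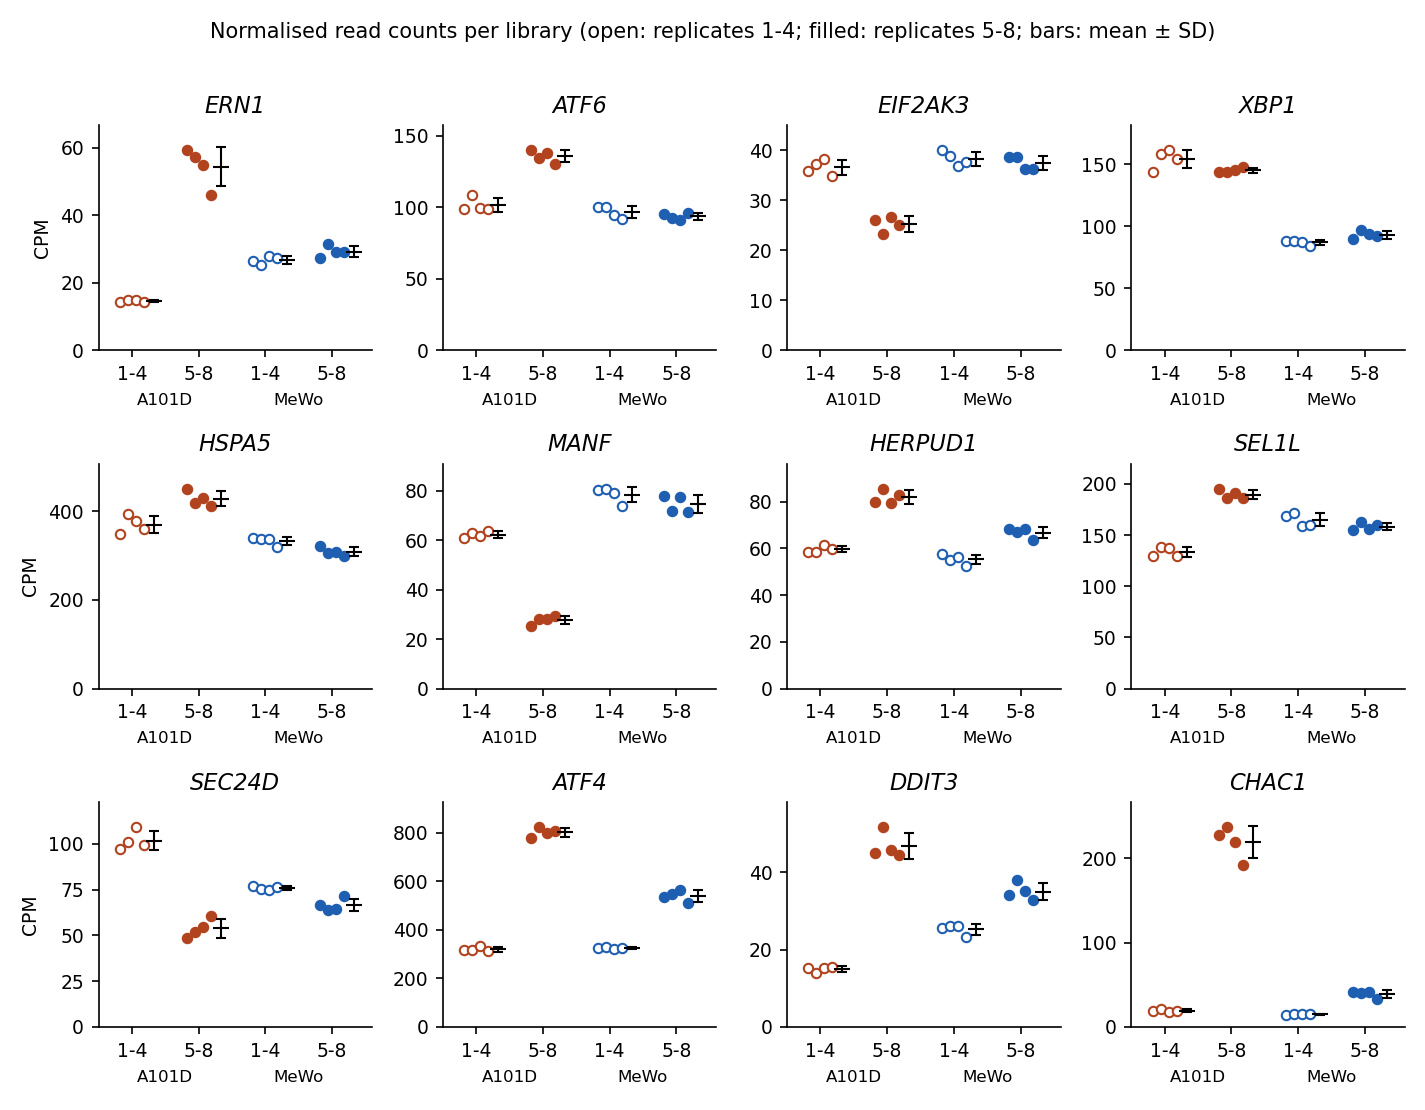
CPM per library for 9 members and for ATF4, DDIT3 and CHAC1 (y axes start at 0; open circles: replicates 1-4; filled circles: replicates 5-8; bars: mean ± SD of 4 libraries). ERN1 lies at 14.3 to 15 CPM in replicates 1-4 and at 46.1 to 59.3 CPM in replicates 5-8 of A101D, HSPA5 stays between 299 and 451 CPM throughout, and ATF4 and CHAC1 are higher in replicates 5-8 of both lines.

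Among the Hsp70 and Hsp90 chaperones and their partners, 4 of 9 were higher in replicates 5-8 of A101D and 5 were lower. HSPA5 (ENSG00000044574, chr9:125234853-125241330, minus strand) is the chaperone whose rise is most often used as the sign of ER stress. A101D held 348, 394, 377 and 359 CPM in replicates 1-4 and 451, 419, 430.0 and 411 CPM in replicates 5-8. The sets did not overlap, and HSPA5 was 1.16-fold higher in replicates 5-8 (log2 difference 0.21 ± 0.03, limma adjusted p = 7.4e-07). MeWo went the other way, with 339, 338, 337 and 319 CPM against 322, 305, 309 and 299 CPM. These sets overlapped by 1 library, and the log2 difference of -0.11 ± 0.04 (limma adjusted p = 0.0295) was lost in several alternatives, for example without replicate 8 of MeWo (limma adjusted p = 0.106). The difference between the lines of -0.32 ± 0.05 was called (limma adjusted p = 4.76e-07).

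The partners of HSPA5 did not follow one direction. DNAJC3 and DNAJB9, J-domain cochaperones that drive its ATPase, were 1.09-fold and 1.17-fold higher in replicates 5-8 of A101D, and HYOU1, its nucleotide exchange factor, was 1.06-fold higher. DNAJB11, another J-domain cochaperone, and SDF2L1, which works with it, were 1.18-fold and 1.46-fold lower. HSP90B1, the ER Hsp90 known as GRP94, was lower by 1.11-fold, from 1145, 1261, 1243 and 1205 CPM to 1046, 1102, 1086 and 1132 CPM. CRELD2, an ER stress-inducible lumenal protein, was 1.66-fold lower (72.7 to 78.7 CPM against 41.7 to 47.5 CPM). In MeWo 5 of these 9 genes were called and all 5 were lower: HSPA5, DNAJB11, DNAJC3, SDF2L1 and HYOU1, with log2 differences from -0.18 to -0.11. The remaining 4, HSP90B1, DNAJB9, CRELD2 and MANF, were not called there.

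MANF (ENSG00000145050, chr3:51385047-51389397, plus strand) encodes a small secreted ER protein that binds HSPA5 and is known to rise in ER stress. In A101D its values were 60.8, 63.0, 61.7 and 63.5 CPM in replicates 1-4 and 25.3, 28.1, 28.1 and 29.1 CPM in replicates 5-8. All 4 libraries of replicates 5-8 lay far below all 4 of replicates 1-4. MANF was 2.25-fold lower (log2 difference -1.17 ± 0.05, limma adjusted p = 1.19e-23), the largest drop of any member. MeWo held 80.1, 80.7, 79.0 and 73.7 CPM against 77.8, 71.8, 77.3 and 71.3 CPM, with overlap and no call (limma adjusted p = 0.248), and the lines differed by 1.09 ± 0.06 (limma adjusted p = 2.81e-18). No motif of the 4 searched occurred in the MANF promoter window, nor in that of ERN1.

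The lectin chaperones CALR and CANX, which hold newly made glycoproteins, parted in A101D. CALR was counted at 1287, 1283, 1282 and 1268 CPM in replicates 1-4 and at 892, 977, 946 and 1041 CPM in replicates 5-8. The sets did not overlap, and CALR was 1.33-fold lower (log2 difference -0.41 ± 0.03, limma adjusted p = 1.03e-12). CANX ran from 814 to 892 CPM and from 811 to 842 CPM, and was not called (-0.03 ± 0.03, limma adjusted p = 0.382), though under total counts it was called higher at 0.07 (limma adjusted p = 0.00719). Neither was called in MeWo, where CALR differed by -0.03 ± 0.03 and CANX by -0.06 ± 0.03.

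The genes of disulfide formation were lower in replicates 5-8 of A101D in all 5 members by the scaling used here, though only PDIA4 under every scaling tried. PDIA4, a disulfide isomerase with several thioredoxin domains, had 1089, 1107, 1078 and 1088 CPM against 708, 763, 759 and 801 CPM, and was 1.44-fold lower (log2 difference -0.53 ± 0.03, limma adjusted p = 7.2e-19). The other isomerases PDIA3, PDIA6 and P4HB and the oxidase ERO1A, which passes electrons from the isomerases to oxygen, were 1.07-fold to 1.12-fold lower. For all 5 the 4 libraries of one set lay wholly below the other. PDIA4 stayed lower under all 4 scalings, whereas PDIA3, PDIA6, P4HB and ERO1A each lost the call under at least 1 of them, as did HSP90B1, SEC61A1 and XBP1 among the other roles. PDIA6 also changed sign, from a log2 difference of -0.10 to 0.0065 under total counts (limma adjusted p = 0.837). None of the 5 was called in MeWo, where the log2 differences ran from -0.10 to 0.02.

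The degradation genes were the role with the most members on the higher side in A101D, 5 of 7. SEL1L and SYVN1 encode the core of the HRD1 ubiquitin ligase complex, DERL2 a protein of its retrotranslocation channel, EDEM1 a mannose-trimming factor and HERPUD1 a scaffold of the complex. SEL1L had 129.5, 139, 137 and 129 CPM in replicates 1-4 and 195, 186, 191 and 186 CPM in replicates 5-8. The sets stood well apart, with SEL1L 1.42-fold higher (log2 difference 0.50 ± 0.03, limma adjusted p = 2.07e-16). DERL2, EDEM1 and SYVN1 were 1.23-fold, 1.12-fold and 1.1-fold higher. In MeWo, SEL1L, SYVN1 and DERL2 were not called, and EDEM1 was lower, from 156, 149, 141 and 141 CPM to 129, 126, 129 and 126 CPM (log2 difference -0.20 ± 0.04, limma adjusted p = 0.000167). DERL1 was called in neither line by the scaling used here, though under total counts it was called higher in A101D. DERL3 held only 261 reads over all 16 libraries, between 0.159 and 1.07 CPM. Its log2 difference in A101D was -0.97 ± 0.26 (limma adjusted p = 0.00115). Its exons overlap those of SMARCB1 on the opposite strand, which had 34997 reads. Whether reads were counted by strand is not given in the sources used here, so DERL3 is uncertain. The same holds for DNAJB9 (THAP5 and PNPLA8) and for SPCS1 (GLT8D1 and NEK4). It also holds for DERL2 (MIS12, 18897 reads against 35782) and CRELD2 (ALG12, 11079 reads against 35516). To a lesser degree it holds for DERL1 (TBC1D31), DNAJB11 (TBCCD1) and SEC61A1 (RUVBL1). SYVN1 is uncertain too, because its exons overlap those of FAU on the same strand (117552 reads against 32239), where counting by strand would not separate them.

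HERPUD1 (ENSG00000051108, chr16:56932048-56944863, plus strand) was the only member called higher in both lines. A101D held 58.6, 58.5, 61.4 and 59.9 CPM against 79.7, 85.5, 79.6 and 82.9 CPM. MeWo held 57.4, 55.1, 56.1 and 52.6 CPM against 68.1, 66.9, 68.5 and 63.5 CPM. In neither line did the sets overlap. The log2 differences were 0.46 ± 0.04 in A101D (limma adjusted p = 1.15e-13) and 0.27 ± 0.04 in MeWo (limma adjusted p = 6.24e-06), and the difference between them was called at -0.19 ± 0.06 (limma adjusted p = 0.00387). Among the 27 members with a promoter window, HERPUD1 alone held the TGATGCAA core printed above, and its window also held the second ER stress element. Whether either element has a part in these differences was not tested.

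Entry into and exit from the ER was lower in replicates 5-8 of A101D in all 5 of its members by the scaling used here. The A101D call of SEC61A1 did not hold under every scaling tried. SEC24D, a cargo-binding subunit of the COPII vesicle coat, had 97.4, 100.97, 109 and 99.4 CPM against 48.5, 51.8, 54.7 and 60.4 CPM. Every library of replicates 5-8 was below every library of replicates 1-4, by 1.89-fold on average (log2 difference -0.92 ± 0.05, limma adjusted p = 2.62e-19). In MeWo it moved the same way but less, from 77.1, 75.2, 74.8 and 76.5 CPM to 66.4, 64.0, 64.5 and 71.4 CPM (-0.19 ± 0.05, limma adjusted p = 0.00534), and the difference between the lines was called at 0.73 ± 0.07 (limma adjusted p = 9.84e-12). SPCS1, a subunit of the signal peptidase, and SEC61B, of the translocation channel, were 1.39-fold and 1.22-fold lower in A101D and were not called in MeWo. SEC61A1, the pore of that channel, was lower in both lines, from 704 to 735 CPM to between 645 and 672 CPM in A101D (-0.14 ± 0.03) and from 350.3 to 370.1 CPM to between 305 and 326 CPM in MeWo (-0.18 ± 0.03, limma adjusted p = 2.8e-05). SSR1, of the translocon-associated complex, was also lower in both, by 0.19 and 0.11 on the log2 scale. Its MeWo call did not hold under every scaling tried.

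Of the 32 members, 24 had a difference between the sets that differed between the lines, beside 49.1% of all genes. The MeWo difference minus the A101D difference was positive in 13 of them and negative in 11. Sorted by direction, 1 member was higher in both lines (HERPUD1), 5 were lower in both (DNAJB11, SDF2L1, SEC61A1, SEC24D and SSR1), and 4 were higher in A101D and lower in MeWo (HSPA5, DNAJC3, HYOU1 and EDEM1). Another 6 were higher in A101D alone by call (DNAJB9, ERN1, ATF6, SEL1L, SYVN1 and DERL2), and for all 6 the difference between the lines passed the test. A further 14 were lower in A101D and not called in MeWo, and in 11 of these the difference between the lines passed the test. How many of all genes fall in each of these classes was not counted, so the class sizes have no background beside them.

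The members with an ER stress element did not share a direction in A101D. HSPA5 was higher, HSP90B1, CALR, PDIA6, CRELD2 and XBP1 were lower, and CANX was not called. In MeWo HSPA5 was lower and the other 6 were not called. Of the 3 with the second element, HYOU1 and HERPUD1 were higher in A101D and SDF2L1 lower, while HERPUD1 was higher and HYOU1 and SDF2L1 lower in MeWo. Of the 11 amino acid response genes with the TGATGCAA core, all 11 were higher in A101D, and 7 were higher and 4 not called in MeWo. These shares are near those of the whole list given next, so they say nothing of the motif.

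The amino acid response was read from a list of 46 genes known for their part in the ATF4 response, ATF4 included. Of these, 44 were higher in replicates 5-8 of A101D and 1 was lower (ALDH18A1), 24 of them by at least 2-fold, with a median log2 difference of 1.03. Of all genes, 33.2% were called higher there, and 16.6% were called and at least 2-fold different. In MeWo 29 were higher, 2 were lower (ALDH18A1 and CDKN1A) and 15 did not pass the test, with a median of 0.29, and CHAC1 alone reached 2-fold. Of all genes in MeWo, 6.16% were called higher, and 0.631% were called and at least 2-fold different. The 2 medians of the list stand beside medians of -0.13 and -0.06 for the ER members and of 0.01 and 0.00 for all genes. The list was chosen with earlier results of these data known. The list overlaps in function with the PERK arm, since ATF4, DDIT3, TRIB3, CHAC1 and PPP1R15A rise in both kinds of response.

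ATF4, the transcription factor itself, had 315, 316, 333 and 313 CPM in replicates 1-4 of A101D and 779, 823, 799.9 and 809 CPM in replicates 5-8. In MeWo it had 327, 330.0, 321 and 324 CPM against 536, 546, 566 and 510.0 CPM. Replicates 1-4 of both lines lay between 313 and 333 CPM and neither line showed overlap, with ATF4 2.52-fold higher in A101D (log2 difference 1.33 ± 0.03, limma adjusted p = 7.28e-32) and 1.66-fold higher in MeWo (0.73 ± 0.03, limma adjusted p = 1.59e-20). DDIT3, which encodes CHOP, a factor linked to cell death in prolonged stress, had 15.2, 13.9, 15.3 and 15.5 CPM against 44.9, 51.7, 45.7 and 44.6 CPM in A101D. In MeWo it had 25.6, 26.2, 26.3 and 23.2 CPM against 34.2, 38.0, 35.1 and 32.8 CPM. The sets did not overlap in either line, with log2 differences of 1.64 ± 0.06 and 0.47 ± 0.06. CHAC1, which degrades glutathione, went from 19.1, 21.4, 18.2 and 19.3 CPM to 227, 237, 219 and 192 CPM in A101D, 11.2-fold, and from between 13.8 and 15.5 CPM to between 32.8 and 42.0 CPM in MeWo, 2.62-fold. ASNS, the asparagine synthetase, was 4.52-fold higher in A101D and 1.57-fold higher in MeWo. TRIB3, a pseudokinase that feeds back on ATF4, was 5.36-fold and 1.57-fold higher. For all 5 genes the difference between the lines passed the test, at log2 values from -2.10 (CHAC1) to -0.60 (ATF4).

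Side by side, in the set of the A101D libraries where ATF4 was 2.52-fold and DDIT3 3.12-fold higher, HSPA5 was 1.16-fold higher and its partners DNAJB9, DNAJC3 and HYOU1 were 1.17-fold, 1.09-fold and 1.06-fold higher. CALR, PDIA4, CRELD2, SDF2L1 and MANF were 1.33-fold to 2.25-fold lower there, and HSP90B1 was 1.11-fold lower, a call lost under total counts (limma adjusted p = 0.114). The sensors ERN1 and ATF6 were 3.7-fold and 1.34-fold higher and the sensor EIF2AK3 1.45-fold lower, and the degradation genes SEL1L, HERPUD1, DERL2, EDEM1 and SYVN1 1.1-fold to 1.42-fold higher. In the set of the MeWo libraries where ATF4 was 1.66-fold higher, no chaperone or disulfide member was called higher. Of all genes, 6.16% were called higher there, so the lack of such a call among so few genes says little. Of the 32 members, HERPUD1 alone was called higher in both lines, as ATF4 was. These are levels of mRNA: unfolded protein, eIF2alpha phosphorylation and XBP1 splicing were not measured.

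**Figure D4:**
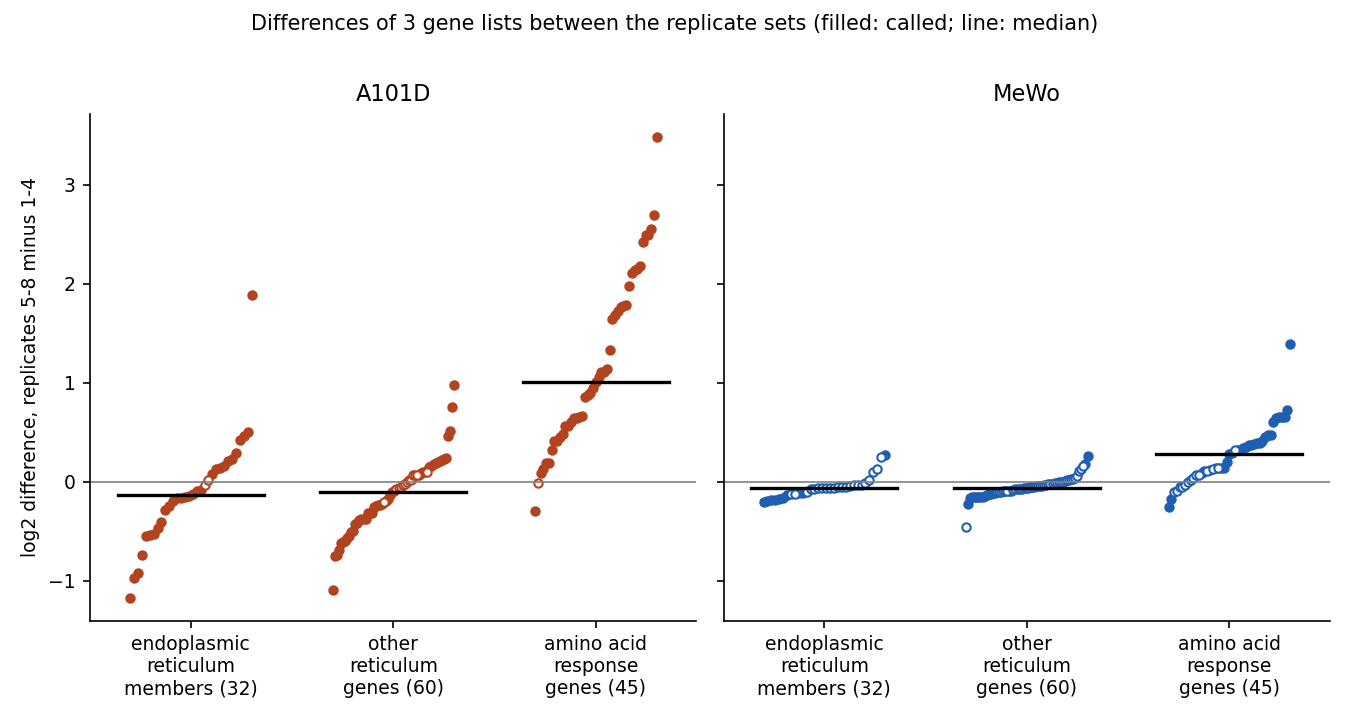
Log2 differences between the replicate sets of the 32 members, of 60 other ER genes and of 45 amino acid response genes, sorted by value, in A101D (left) and MeWo (right); filled points were called and horizontal lines are medians. FGF21 is left out of the third list because it had 2 reads in replicates 1-4 of A101D; without it that list's medians are 1.00 and 0.28, while those of the members are -0.13 and -0.06.

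The ER genes outside the members showed a like mixture. Of 60 other genes of ER translocation, folding, glycosylation, degradation and transport, 17 were higher and 30 lower in replicates 5-8 of A101D, with a median log2 difference of -0.10. Those called were 78.3% of this list, beside 65.6% of all genes, of which 33.2% were higher and 32.4% lower. The highest called were MIA2, a cargo receptor partner at ER exit sites, at 0.98 ± 0.06, and TXNDC11, a thioredoxin-domain protein, at 0.76 ± 0.04. The lowest were KDELR3, a receptor that returns escaped ER proteins from the Golgi, at -1.09 ± 0.05, and SSR3, a partner of SSR1 in the translocon-associated complex, at -0.75 ± 0.04. In MeWo 2 of the 60 were higher, ERO1B at 0.26 ± 0.06 and ATF6B at 0.18 ± 0.04, and 16 were lower. Those called were 30% of this list, beside 13.6% of all genes, of which 6.16% were higher and 7.45% lower. CREB3L2, an ER-bound transcription factor related to ATF6, was lowest at -0.23 ± 0.04, followed by SSR3 at -0.17 ± 0.04. ERO1B and ATF6B were also higher in A101D. In MeWo the ERO1B call was lost without replicate 8 of MeWo (limma adjusted p = 0.0648). It was also lost when no filter on low counts was applied (limma adjusted p = 0.063), as was the SSR3 call (limma adjusted p = 0.109).

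Most of the members also differed between the lines. Over all libraries, 27 of the 32 members were called between MeWo and A101D, 10 higher and 17 lower in MeWo, beside 86.9% of all genes, so the share of members called, 84.4%, is near that background. Within replicates 1-4 28 were called, beside 79.4% of all genes, and within replicates 5-8 29, beside 84.2%. All 5 members with at least a 2-fold difference were lower in MeWo: DNAJB9, PDIA4, HYOU1, DERL3 and SEC61A1. Over all 21569 genes tested, 8598 were called and at least 2-fold different, 5118 of them lower in MeWo.

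DNAJB9 had 42.2 to 54.5 CPM over the 8 libraries of A101D and 11.6 to 15.1 CPM over those of MeWo. The ranges lay far apart, with a log2 difference of -1.88 ± 0.04 (limma adjusted p = 3.87e-34). This value is uncertain, because DNAJB9 exons overlap those of PNPLA8 and THAP5 on the opposite strand (30250 and 30111 reads against 16826). PDIA4 had 708 to 1107 CPM in A101D, and MeWo had 267 to 304 CPM (-1.69 ± 0.02, limma adjusted p = 5.03e-41). HYOU1 lay between 366 and 409.9 CPM in A101D and between 148 and 177 CPM in MeWo (-1.23 ± 0.02, limma adjusted p = 8.27e-37). These 3 chaperone genes did not overlap between the lines in any library.

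Higher in MeWo were CANX, at 1428 to 1567 CPM against 811 to 892 CPM (0.83 ± 0.02, limma adjusted p = 4.41e-32), DERL2, at 75.7 to 82.6 CPM against 45.9 to 61.5 CPM (0.60 ± 0.03, limma adjusted p = 6.72e-23), and MANF. The MANF value of 0.88 ± 0.03 was the largest in this direction, but it came to 0.33 ± 0.04 within replicates 1-4 and 1.43 ± 0.05 within replicates 5-8, since the A101D level differed between the sets. ERN1 turned round between the sets: it was higher in MeWo within replicates 1-4 (0.87 ± 0.07, limma adjusted p = 3.58e-13) and lower within replicates 5-8 (-0.89 ± 0.06, limma adjusted p = 1.88e-16), with a mean of -0.01 that was not called. XBP1 was lower in MeWo in both, by 0.82 and 0.64 on the log2 scale, and HSPA5 by 0.15 and 0.47. ATF6 and EIF2AK3 did not differ by call within replicates 1-4 (limma adjusted p = 0.0955 and 0.158), and within replicates 5-8 ATF6 was lower in MeWo at -0.53 ± 0.04 and EIF2AK3 higher at 0.57 ± 0.05.

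**Figure D5:**
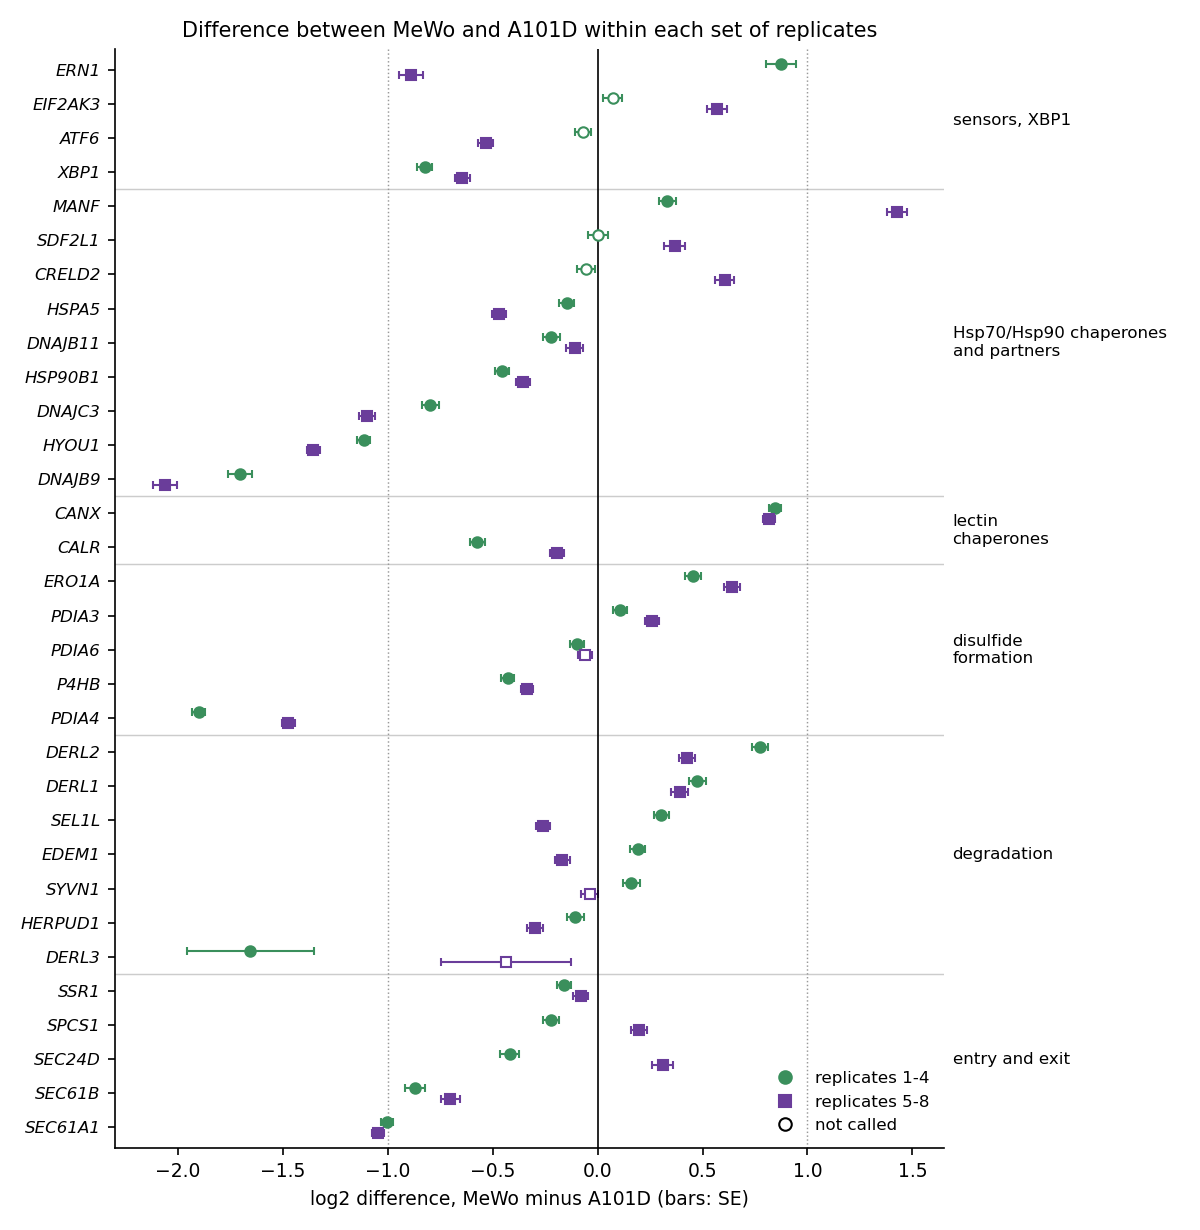
Log2 difference between MeWo and A101D for each member within replicates 1-4 (circles) and within replicates 5-8 (squares), grouped by role (x axis: log2 difference; bars: standard error; open symbols: not called; dotted lines: 2-fold). ERN1 lies at 0.87 and -0.89, MANF at 0.33 and 1.43, and PDIA4, DNAJB9 and HYOU1 lie below -1 in both.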

How the data were processed

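RNA of 16 libraries was sequenced after a stranded total RNA preparation, per the labels' protocols. The deposited columns join each gene's identifier with its whole-number read count in 1 cell. Per the submitters' processing notes, reads were trimmed with Trimmomatic 0.39-1, aligned to GRCh38 with STAR 2.7.1a and counted with featureCounts 2.0.0, over exons per the file headers. Neither the gene annotation used for counting nor its strand setting is known here.

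The counts were separated from the identifiers and scaled with trimmed means of M values. Genes with at least 0.298 CPM in 4 libraries and 15 counts in all were kept. limma 3.58.1 (R 4.3.3) was fitted to voom-weighted log2 CPM with 1 mean per line and replicate set, with robust empirical Bayes moderation and two-sided p-values adjusted after Benjamini and Hochberg over all 21569 genes. A gene was called at 0.05. Fold changes are model estimates. The fit was first tested on simulated data. Exon lengths and positions come from GENCODE v29, gene symbols from a separate list of gene names, and promoters from RefSeq. Genes with full values were the 6 central members, the 3 highest and 3 lowest called per comparison, and 5 amino acid response genes, ATF4 included. The members, lists and sets were chosen with earlier results of these data known, so their tests are not independent of those results. Library pairs within a set differed by at least 1.97 in chi-square per degree of freedom, more than sampling noise alone would give. The alternatives were 3 other scalings, 2 filters, limma-trend, other thresholds, and leaving out each library.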

Additional observations from a re-analysis of the deposited data

Results flagged for a closer look

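The difference between the replicate sets differed between the lines, by the interaction test of the limma fit, for 24 of the 32 members and for all 5 amino acid response genes named, ATF4 included. The values that follow are log2, MeWo difference minus A101D difference. Among the sensors they were -1.76 for ERN1, -0.46 for ATF6, 0.50 for EIF2AK3 and 0.18 for XBP1. Among the Hsp70 and Hsp90 chaperones and partners they were -0.32 for HSPA5, -0.36 for DNAJB9, -0.30 for DNAJC3, -0.24 for HYOU1, 0.36 for SDF2L1, 0.66 for CRELD2 and 1.09 for MANF. CALR came to 0.38, PDIA3 to 0.15, PDIA4 to 0.43 and ERO1A to 0.18. Degradation genes came to -0.19 for HERPUD1, -0.56 for SEL1L, -0.20 for SYVN1, -0.36 for EDEM1, -0.35 for DERL2 and 1.22 for DERL3. The DERL3 call was lost without replicate 8 of A101D (limma adjusted p = 0.0552) or replicate 3 of MeWo (0.0659). Entry and exit genes came to 0.17 for SEC61B, 0.73 for SEC24D and 0.42 for SPCS1. The ATF4 group came to -0.60 for ATF4, -1.17 for DDIT3, -1.77 for TRIB3, -2.10 for CHAC1 and -1.53 for ASNS.

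In 11 of 222 sets of libraries 1 library lay apart from the others by Dixon's criterion, where chance at 1 in 20 gives 11.1. Replicate 4 of MeWo was lowest of replicates 1-4 for HSPA5 (319 CPM against 337 to 339), XBP1 (84.4 CPM against 87.7 to 88.3) and SEC61B (35.8 CPM against 36.8 to 37.0). In A101D, replicate 2 was high for ATF6 among replicates 1-4 (109 CPM against 98.7 to 99.4) and for CANX among all 8 (892 CPM against 811 to 844), and replicate 3 was high for ATF4 (333 CPM against 313 to 316). Among replicates 5-8 of A101D, replicate 8 was high for DNAJC3 (193 CPM against 186 to 187), replicate 6 for DERL2 (61.5 CPM against 56.0 to 56.9) and DDIT3 (51.7 CPM against 44.6 to 45.7), and replicate 5 was low for DERL1 (47.8 CPM against 51.8 to 52.1). Replicate 8 of MeWo was low for CHAC1 (32.8 CPM against 40.8 to 42.0). These low and high libraries are also among the values given for each gene in the results.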

How the results depend on the processing

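With a further demand of at least 2-fold, the members called fell to 2 in A101D, 0 in MeWo, 3 for the difference between the lines and 5 between the lines, and the amino acid response genes to 24 in A101D and 1 in MeWo. Of all 21569 genes, the same demand left 3581 in A101D, 136 in MeWo, 2881 for the difference between the lines and 8598 between the lines. Leaving out 1 library at a time gave 28 to 30 members in A101D, 7 to 16 in MeWo (16 without replicate 4 of MeWo), 21 to 25 for the difference between the lines and 26 to 28 between the lines, and 44 to 45 and 26 to 32 amino acid response genes. Other scalings, filters, limma-trend and a threshold of 0.01 kept each count within 1.5 times its value, and no called member was called in the opposite direction. Under total counts, XBP1 and PDIA6 in A101D turned to 0.019 and 0.0065, and CANX, not called otherwise, to a called 0.07. DERL1, not called in A101D by the main scaling, was also called higher under total counts. Of 1330 alternative values of 59 single-gene results chosen by the rule for named genes, which leaves out PDIA6, DERL1 and the CANX difference in A101D, 1293 kept direction and call, 33 lost the call, 3 gained one and 1 changed sign. The 3 gained calls were those of XBP1 between the sets of MeWo, higher in replicates 5-8.

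The replicate numbers did not pair the libraries: residuals of same-numbered A101D and MeWo libraries correlated at -0.03 to 0.08, and 3 of 8 correlated best with their own number. With the replicate number as a block, 25 members were called between the lines and 24 for the difference between them. No paired analysis was possible for the sets of 1 line because they share no replicate number. A planned edgeR fit was not run.

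Depth limits DERL3 most, with 261 reads in all 16 libraries.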
